A study of Mus musculus with 32 samples.

Results

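The 31 lysosomal genes described here encode hydrolases, membrane proteins and lipid carriers of the lysosome, together with the transcription factors Tfeb and Tfe3. They were taken by symbol from a list drawn up with earlier results of these data known, with no threshold on a measured value, and all 31 had an entry among the 24890 gene symbols of the deposited tables. The samples were polyadenylated RNA from wild-type E14 cells, a mouse embryonic stem cell line, all grown on gelatin in a medium with serum, LIF, 3 µM CHIR99021 and 1 µM PD0325901, which inhibit GSK3 and MEK. The medium of the NrESC arm also held T0901317 at 10 µM, which activates the liver X receptors (LXR), and the ESC arm is the untreated control of equal passage. Each arm was sequenced at passages 0, 2, 4, 6, 8, 10, 12 and 14, with 2 libraries in each of the 16 groups. The labels give the passage 0 NrESC libraries as treated without saying for how long. Whether the 2 libraries in each group were separate cultures is not labelled. The p-values thus measure only the spread between these samples, which may be technical. Nor is it labelled whether the passages of an arm came from 1 culture, and tests over passages took them as independent. All groups come from 1 cell line.

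Lysosomes are acidic compartments in which hydrolases break down proteins, glycans and lipids delivered by endocytosis and autophagy. Many lysosomal genes carry a short E-box-like element near their start site, the CLEAR element, through which TFEB and TFE3 can raise their transcription when the factors enter the nucleus. The lysosome also releases cholesterol from low-density lipoprotein, through the acid lipase encoded by Lipa and the transporters encoded by Npc1 and Npc2. Oxysterols made from such cholesterol are natural ligands of LXR, and in mouse embryonic stem cells TFE3 is known for its part in the exit from naive pluripotency.

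Libraries held 24989652 to 50463489 counts, and the lysosomal gene with the fewest counts averaged 137 per library. The LXR target Abca1 stood at 5.44 to 10.3 TPM (transcripts scaled by length and by library) in ESC and 53.5 to 77.2 in NrESC, so every library matched its arm. Embryonic stem cell markers were abundant in all libraries, with Pou5f1 between 1991 and 2428 TPM. Of the 8 markers, 2 were higher and 4 lower in NrESC in the mean of passages (edgeR, adjusted p below 0.05). Among all tested genes 28.3% were higher and 27.2% lower. Both passage 8 libraries of NrESC lay away from the rest on the second principal component of log2 expression, at -42.2 and -40.7, where the other 30 lay between -19.5 and 36.5. The main numbers of genes called in the mean of passages and among passages are given with and without passage 8. So are the arm differences of several genes.

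Before the values, the start-site regions of these genes show how common the CLEAR core is among them. RefSeq start-site windows of GRCm38.p6, from 250 bases before to 50 after the start, were found for 28 of the 31 genes and searched for CACGTG, which reads the same on both strands. It was present in 11 of the 28 (39.3%), in Arsa, Cln3, Ctsa, Ctsd, Ctsl, Gaa, Gla, Glb1, Lamp1, Mcoln1 and Sgsh. The share was 11.6% of the 11722 tested genes with a window and 7.15% of all 32851 windows. The longer palindrome TCACGTGA, which contains CACGTG, was in 5 of 28 (17.9%) against 2.02% of tested genes. The full GTCACGTGAC was in Cln3 alone, against 0.708% of tested genes. A direct repeat of the kind LXR binds, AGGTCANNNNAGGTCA, was searched on both strands and matched none of the 28 and none of the tested genes in this window. Since no tested gene matched this exact form, its absence cannot tell whether the 28 genes hold LXR sites. A match is a description of letters and not of binding. The stretches below hold more than 1 copy (Lamp1, Mcoln1, Cln3, Gla) or belong to the genes with a large rise (Arsa) and a steady fall (Ctsa) under treatment, and capitals mark CACGTG.
Lamp1: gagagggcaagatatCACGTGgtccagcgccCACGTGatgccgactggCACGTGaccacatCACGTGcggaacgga
Mcoln1: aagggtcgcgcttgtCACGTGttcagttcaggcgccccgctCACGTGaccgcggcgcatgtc
Cln3: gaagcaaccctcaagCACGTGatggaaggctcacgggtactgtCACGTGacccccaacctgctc
Gla: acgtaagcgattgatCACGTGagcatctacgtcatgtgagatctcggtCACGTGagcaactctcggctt
Arsa: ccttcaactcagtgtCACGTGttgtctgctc
Ctsa: caatgagcaaactgtCACGTGatgcag
In GRCm38.p6, the Lamp1 stretch is chr8:13159085-13159160 on the plus strand, with 4 copies from -61 to -15 of the start site. The Mcoln1 stretch is chr8:3500433-3500494 on the plus strand, with copies at -71 and -45. The Cln3 stretch is chr7:126583337-126583400 on the minus strand, with copies at -149 and -121. The Gla stretch is chrX:134601179-134601247 on the minus strand, with copies at -227 and -194. The Arsa stretch is chr15:89477425-89477455 on the minus strand, with its copy at -16. The Ctsa stretch is chr2:164833746-164833772 on the plus strand, with a copy at -12 and another, not shown, at 6 bases into the transcript. These windows come from RefSeq, while the deposited values were made on mm9.

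The 31 genes spanned a wide range of levels in these cells. Lamp1, the most abundant lysosomal membrane glycoprotein, led with a mean of 507 TPM over the 16 groups, above 98.2% of tested genes. It was followed by the aspartic protease gene Ctsd at 246 TPM, by Psap (saposin precursor) at 209 and by the tetraspanin gene Cd63 at 204. Npc2 and Glb1 (beta-galactosidase) stood at 102 and 91.1 TPM. The middle ran from Asah1 (acid ceramidase) at 86.6 through Ctsz, Ctsl, Ctsb, Lamp2 at 52.9, Hexa, Gaa, Manba, Ctsa, Tfe3, Tfeb, Gusb, Tpp1, Man2b1, Mcoln1 and Ppt1 down to Gla at 15.4 TPM. The low end held Cln3, Neu1, Smpd1, Npc1, Arsa, Scarb2, Lipa at 3.84 and Sgsh at 2.59 TPM. Of the 30 neighbouring pairs in this order, 17 lay closer together than the larger of their SDs over the 16 groups, and 13 lay further apart. Glb1 and Asah1 differed by 4.46 TPM with an SD up to 10.3, and Ctsa and Tfe3 by 0.0156 TPM with an SD up to 5.94. In contrast Lamp1 exceeded Ctsd by 261 TPM with an SD up to 35.0. No gene of the list was at 0 in any library.

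**Figure D1:**
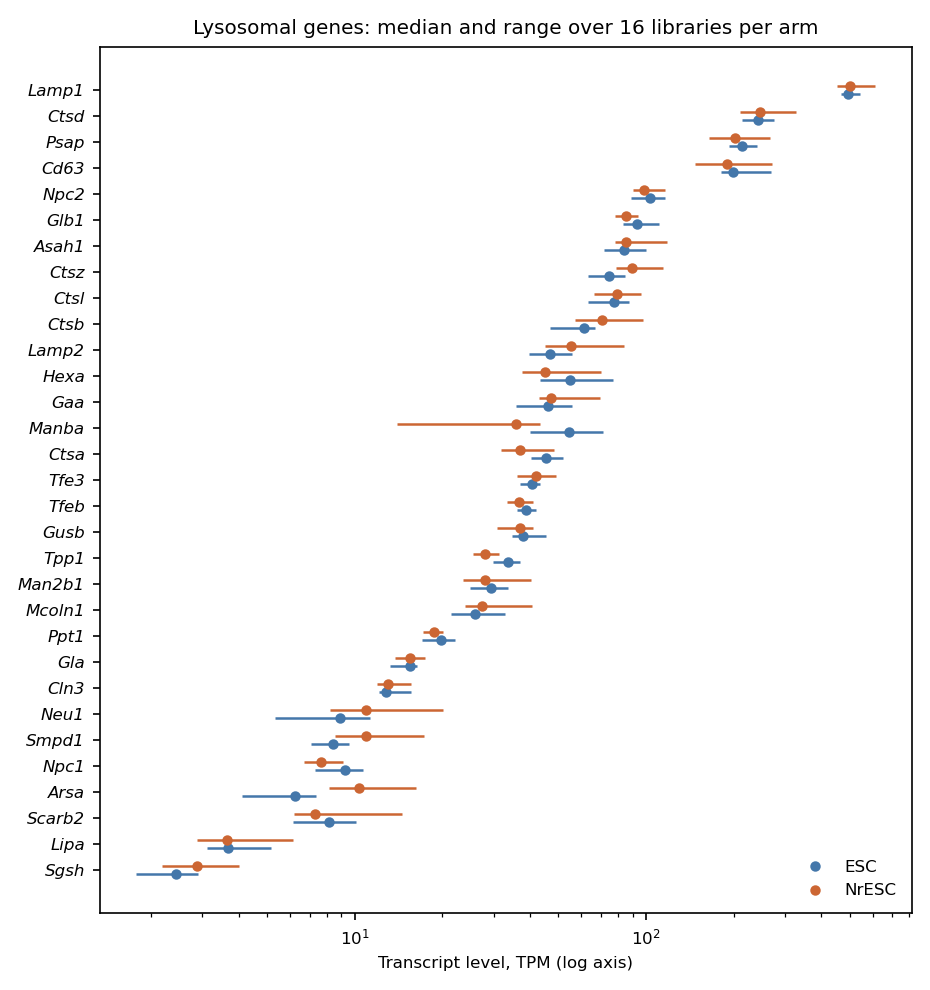
Transcript level in TPM on a log axis for each of the 31 lysosomal genes, ordered by mean level, with points at the median and lines from the lowest to the highest of 16 libraries in ESC and NrESC. Lamp1 leads at 507 TPM, Sgsh is last at 2.59 TPM, and Arsa is the gene whose arms do not overlap.

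The first comparison asked whether treated and untreated cells of equal passage differed in the mean of the 8 passages. Lysosomal genes moved in both directions. Of the 31, 12 rose, 6 fell and 13 were not called at an adjusted p below 0.05 (edgeR quasi-likelihood test, Benjamini-Hochberg over 15036 genes). Among all tested genes, 28.3% rose and 27.2% fell, beside 38.7% and 19.4% of the list. Without passage 8, 9 of the 31 rose and 6 fell. In both fits of limma on log2 TPM, and without passage 2, 8 rose and 6 fell. No share over all tested genes was taken in these settings. The median log2 fold change was 0.04 in the list and -0.0008 over all tested genes. In bulk RNA, fewer cells of a type and less RNA per cell cannot be told apart. At a size of at least 1.25-fold with the same sign at all 8 passages, 5 genes rose (Arsa, Smpd1, Neu1, Lamp2 and Sgsh) and Manba alone fell, where 11.1% and 8.56% of tested genes met this rule. Lamp2, Ctsb, Ctsz, Neu1, Sgsh, Mcoln1, Arsa and Smpd1 rose, and Manba, Ctsa, Hexa, Tpp1, Npc1 and Glb1 fell, in all 47 settings tried. The small rises of Ctsd, Asah1, Gaa and Tfe3 were not called in all 47, as given with each gene below. With single libraries as the unit 16 genes were called higher and 11 lower (39.1% and 39.8% of all tested genes).

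**Figure D2:**
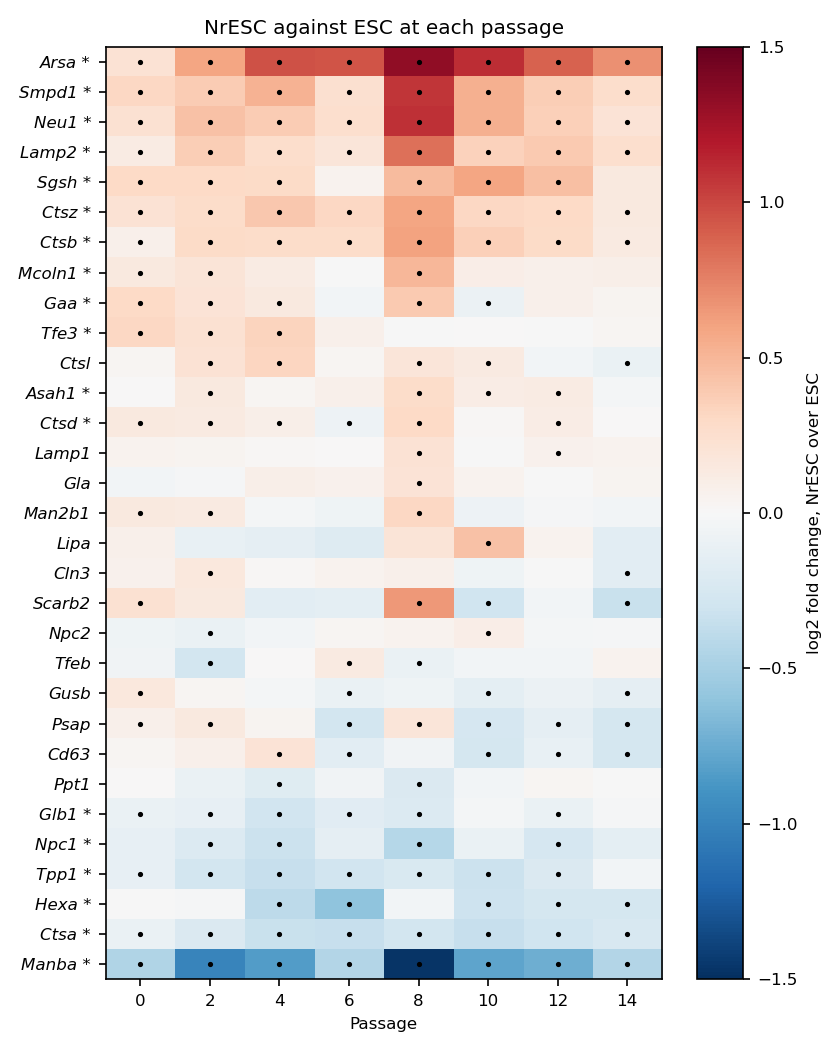
Log2 fold change of NrESC over ESC at each passage for the 31 genes, ordered by the mean over passages, in red where higher and blue where lower in NrESC. Dots mark an adjusted p below 0.05 at that passage and asterisks one in the mean of passages, and the strongest colours lie at passage 8, where Arsa is at 1.33 and Manba at -1.47.

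Among the 7 membrane proteins, 2 rose and 1 fell, where 28.3% and 27.2% of all tested genes did. Lamp2, which encodes a membrane glycoprotein needed for fusion of autophagosomes with lysosomes and for chaperone-mediated autophagy, ranged from 39.7 to 55.6 TPM in ESC (median 46.7) and from 44.8 to 84.1 in NrESC (median 55.3). NrESC libraries lay above ESC libraries of equal passage in TPM, other than at passages 4 and 6, where they overlapped. The log2 difference was 0.34 (SE 0.06, adjusted p = 0.000728), and 0.28 without passage 8. Lamp1, the paralogue, was at 500.5 TPM ± 23.2 (SD of the 8 passage means) in ESC and 515 ± 44.5 in NrESC. It was not called at 0.05 in log2 (SE 0.03, adjusted p = 0.123). The Lamp1 exons share 9.31% of their bases with Grtp1 on the opposite strand, and Grtp1 was called higher by 0.33 in log2, while the strand setting of the counts was not stated. Mcoln1, the lysosomal calcium channel TRPML1, ran from 21.5 to 32.8 TPM in ESC and from 23.9 to 40.5 in NrESC. It rose by 0.15 in log2 (SE 0.05, adjusted p = 0.0196), and by 0.11 without passage 8. Npc1, the membrane transporter that carries cholesterol out of the lysosome, ran from 7.33 to 10.7 TPM in ESC and from 6.68 to 9.08 in NrESC, so that the arms overlapped. It fell by 0.21 in log2 (SE 0.05, adjusted p = 0.00218), lower in NrESC at 8 of 8 passages. Cd63, Scarb2 and Cln3 were not called, at -0.07, 0.01 and 0.02 in log2. Scarb2, the receptor that brings glucocerebrosidase to the lysosome, had a mean near 0 over changes of opposite sign, from -0.33 at passage 14 to 0.66 at passage 8.

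Of the 6 proteases, 3 rose and 2 fell, where 28.3% and 27.2% of all tested genes did. Ctsz, a carboxypeptidase, had a median of 74.7 TPM in ESC (63.0 to 84.4) and 89.8 in NrESC (78.6 to 114), and rose by 0.32 in log2 (SE 0.04, adjusted p = 0.00011). This lay just under the limit of 1.25-fold. Ctsb, a cysteine protease, had a median of 61.1 TPM in ESC (47.0 to 66.9) and 70.3 in NrESC (57.0 to 97.6), and rose by 0.29 (SE 0.05, adjusted p = 0.000424). Both were called higher at each of the 8 passages. Exons of Ctsb share 12.8% of their bases with Fdft1, a gene of sterol synthesis on the opposite strand that was itself called higher by 0.48, so reads of the pair could have been mixed. Ctsa, the protective protein that holds beta-galactosidase and neuraminidase in a complex, moved the other way. Its ESC libraries ran from 40.3 to 51.9 TPM (median 45.5) and its NrESC libraries from 31.8 to 48.4 (median 36.9). It was lower in NrESC at all 8 passages, called at each of them, and fell by 0.27 on the log2 scale (SE 0.03, adjusted p = 6.62e-05). Exons of Ctsa share 17.4% of their bases with Pltp and Neurl2 on the opposite strand. Pltp, a known LXR target, was called higher by 0.54 in log2, opposite in sign to Ctsa. Tpp1, a tripeptidyl peptidase, was at 33.5 TPM ± 2.03 in ESC and 28.2 ± 1.67 in NrESC (SD of the 8 passage means). It fell by 0.23 in log2 (SE 0.04, adjusted p = 0.000381). Ctsd was at 239 TPM ± 18.7 and 253 ± 33.1, with a called difference of 0.09 (SE 0.04, adjusted p = 0.0498) that was called in 16 of 47 settings. It was lost when any 1 passage other than passage 6 was left out. The call was also lost in the DESeq2 test, with DESeq2 size factors, without the filter on low counts and in limma on log2 TPM. Ctsd also shares 34.4% of its exon bases with the entry Gm49369 on the same strand. Ctsl was not called at 0.10 (SE 0.04, adjusted p = 0.0845), and was called with passage 12 left out (adjusted p = 0.0483) or passage 14 left out (adjusted p = 0.0372).

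The 8 glycosidases held changes in both directions, with 2 called higher and 3 lower, where 28.3% and 27.2% of all tested genes were. Manba encodes beta-mannosidase, which removes the last mannose in the breakdown of N-glycans, and it showed the lowest fold change of the 31 genes. ESC libraries ran from 40.0 to 71.2 TPM (median 54.4) and NrESC libraries from 13.9 to 43.1 (median 35.7). The arms overlapped only where ESC libraries of passage 8, at 40.0 and 41.6 TPM, met NrESC libraries of passages 6, 10 and 14. Manba fell by 0.76 in log2 (SE 0.10, adjusted p = 9.32e-05), which made it 1.70-fold lower, and by 0.66 without passage 8. Hexa, the alpha subunit of hexosaminidase A that degrades GM2 ganglioside, was at 55.7 TPM ± 8.78 in ESC and 47.0 ± 10.9 in NrESC (SD of the 8 passage means). It fell by 0.24 in log2 (SE 0.06, adjusted p = 0.00623), with differences between -0.01 at passage 0 and -0.61 at passage 6. Hexa shares 12.8% of its exon bases with Tmem202 on the opposite strand, which averaged under 0.1 TPM in either arm. Glb1, which removes terminal galactose, was at 95.8 TPM ± 9.55 in ESC and 86.4 ± 5.40 in NrESC and fell by 0.13 (SE 0.03, adjusted p = 0.00786). Neu1, the lysosomal sialidase, moved the other way from its complex partners Ctsa and Glb1. Its ESC libraries ran from 5.32 to 11.3 TPM (median 8.905) and its NrESC libraries from 8.23 to 20.1 (median 10.96). The arms overlapped over all passages and were apart at each of them. It rose by 0.44 in log2 (SE 0.08, adjusted p = 0.00107), and by 0.34 without passage 8. Gaa, the acid alpha-glucosidase that degrades glycogen, was called at 0.13 (SE 0.05, adjusted p = 0.0381). The call was lost without passage 0, 2, 4 or 8 (adjusted p = 0.0671 without passage 8) or without ESC passage 10 replicate 1. Both fits of limma on log2 TPM lost it as well (adjusted p = 0.0824 and 0.0808). Gla, Gusb and Man2b1 were not called, at 0.05, -0.05 and 0.04 in log2.

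The sulfatases Arsa and Sgsh both rose, where 28.3% of all tested genes did. Arsa, arylsulfatase A, removes the sulfate of sulfatide and was the only gene of the list whose 16 NrESC libraries all lay above all 16 ESC libraries, a property of 1.51% of tested genes upward and 1.32% downward. ESC libraries ran from 4.11 to 7.34 TPM (median 6.225) and NrESC libraries from 8.17 to 16.2 (median 10.36). The log2 fold change was 0.84 (SE 0.10, adjusted p = 5.36e-05), which made Arsa 1.79-fold higher, and 0.77 without passage 8. At single passages it went from 0.21 at passage 0 to 1.33 at passage 8. Sgsh, the heparan N-sulfatase, ran from 1.78 to 2.90 TPM in ESC (median 2.425) and from 2.17 to 3.99 in NrESC (median 2.865). It rose by 0.33 in log2 (SE 0.07, adjusted p = 0.00226), was higher at 8 of 8 passages and was called at 6 of them. Sgsh shares 21.6% of its exon bases with Card14 on the opposite strand, which averaged 0.318 TPM in ESC and 0.236 in NrESC.

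Of the 6 lipid hydrolases and carriers, 2 rose and none was called lower, where 28.3% and 27.2% of all tested genes were called. Smpd1, acid sphingomyelinase, ran from 7.08 to 9.58 TPM in ESC (median 8.445) and from 8.55 to 17.3 in NrESC (median 10.9). It was called higher at each passage, and it rose by 0.46 in log2 (SE 0.08, adjusted p = 0.000688), or 0.38 without passage 8. Asah1, which cleaves ceramide, was called at 0.09 (SE 0.03, adjusted p = 0.0347). The call was lost without passage 2, 6, 8, 10 or 12 (adjusted p = 0.0518 without passage 8), NrESC passage 0 replicate 2 or NrESC passage 2 replicate 1. Both fits of limma on log2 TPM lost it as well (adjusted p = 0.0862 and 0.0878). Psap, whose saposins help hydrolases reach their lipids, was not called at -0.06 (SE 0.06, adjusted p = 0.377). Its sign changed with passage, from 0.19 at passage 8 to -0.28 at passage 6, and it was called higher at 3 passages and lower at 4. Ppt1, which removes palmitate from proteins, was not called at -0.07. Of the genes of lysosomal cholesterol release, the transporter Npc1 fell as given above, while the soluble carrier Npc2 was at 103 TPM ± 10.3 in ESC and 101 ± 8.35 in NrESC. The acid lipase Lipa was at 3.82 TPM ± 0.584 and 3.86 ± 0.803 (SD of the 8 passage means). Npc2 had a log2 fold change of -0.01 (SE 0.03) and Lipa of 0.02 (SE 0.08), with adjusted p = 0.811 and 0.817.

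The transcription factors themselves differed little in transcript level. Tfeb stood at 38.6 TPM ± 1.78 in ESC and 37.1 ± 2.00 in NrESC, not called at -0.04 in log2 (SE 0.04, adjusted p = 0.456). Tfe3 stood at 40.2 TPM ± 1.82 and 43.0 ± 4.11 (SD of the 8 passage means) and was called at 0.12 (SE 0.05, adjusted p = 0.0435). That call came with early passages: Tfe3 was called higher at passages 0, 2 and 4 only, by 0.31, 0.23 and 0.34, and the mean was lost without passage 0, 2 or 4 (adjusted p = 0.115 without passage 4). It was also lost without any 1 of 6 single libraries, ESC passage 12 replicate 1 and passage 14 replicate 2, and NrESC passage 8 replicate 1, passage 10 replicate 2, passage 12 replicate 1 and passage 14 replicate 1. The DESeq2 test did not call Tfe3, nor did edgeR with DESeq2 size factors (adjusted p = 0.0545). Both fits of limma on log2 TPM lost the call as well (adjusted p = 0.123 and 0.122). The nuclear entry of these proteins was not measured here.

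**Figure D3:**
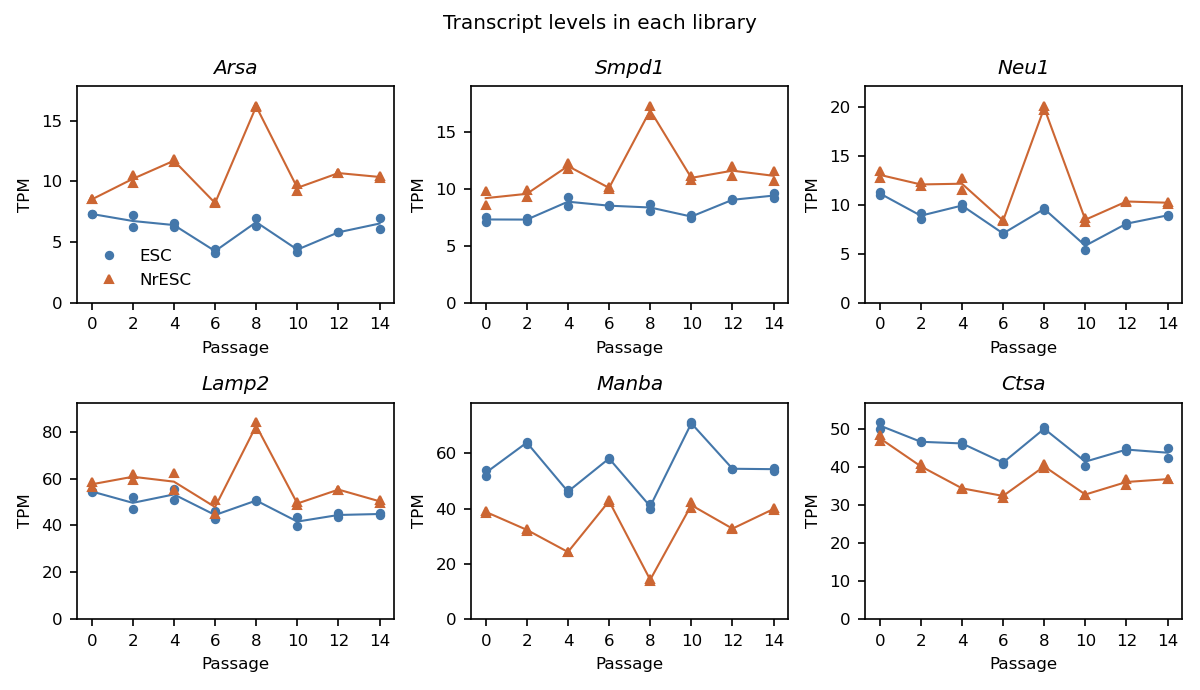
Level in TPM of Arsa, Smpd1, Neu1, Lamp2, Manba and Ctsa in each library by passage, with circles for ESC, triangles for NrESC and lines through the group means. Replicate libraries lie close together, the arms are apart at each passage other than Lamp2 at 4 and 6, and the NrESC libraries of passage 8 are the highest for the first 4 genes and the lowest for Manba, at 13.9 and 14.5 TPM.

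Taken passage by passage, the number of called genes was largest at passage 8 and smallest at passage 14. At passage 0, 15 genes were higher and 4 lower in NrESC (17.6% and 14.8% of all tested genes). At passage 2 the numbers were 16 and 7 (24.7% and 23.8%), at passage 4 they were 12 and 7 (27.4% and 26.9%), and at passage 6 they were 7 and 9 (23.6% and 25.1%). At passage 8 they were 17 and 7 (35.2% and 34.6%), at passage 10 they were 11 and 9 (27% and 28.5%), at passage 12 they were 10 and 8 (23.1% and 24%), and at passage 14 they were 6 and 9 (19.7% and 21.3%). The passage 0 numbers rested on single libraries: without NrESC passage 0 replicate 1 they were 5 and 2. Without any 1 of the other 3 libraries of passage 0 there were 9 higher, and without ESC passage 0 replicate 2 there was 1 lower. In all, 6 genes were called higher at all 8 passages, namely Ctsz, Ctsb, Lamp2, Neu1, Smpd1 and Arsa, and Manba and Ctsa were called lower at all 8. Another 10 genes were called in both directions at different passages, among them Psap, Cd63 and Scarb2. For these counts over passages no share of all tested genes was taken, so they describe the list alone. Cd63, a marker of late endosomes and exosomes, was called higher by 0.20 at passage 4 and lower by 0.27 in log2 at passage 14. The test of whether the arm difference varied among passages called 28 of the 31 genes, where 69.4% of all tested genes were called. Without passage 8 it called 23 of the 31, with no share over all tested genes taken.

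No gene of the list had a slope over passage number that was called (edgeR, sums per arm and passage). In ESC, 6 genes had an unadjusted p below 0.05 (16.6% of all tested genes). In NrESC 5 had (19.9%), and for the difference of slopes 1 had (2.89%). The smallest adjusted p was 0.176 in ESC, 0.0639 in NrESC and 1 for the difference. Among all tested genes 0.219% were called rising and 0.259% falling in ESC, 0.745% and 1.66% in NrESC, and 0% and 0.0133% for the difference. DESeq2 called 2 genes falling in NrESC, and none in ESC or for the difference. Without passage 8, 2 genes were called rising in ESC and 3 falling in NrESC. For DESeq2 and for the fit without passage 8, no share over all tested genes was taken. The steepest fitted slope was that of Cd63 in NrESC, at -0.045 in log2 per passage (adjusted p = 0.0704). With single libraries as the unit, which leaves out the spread over passages, 6 genes were called rising and 16 falling in ESC (27.2% and 28.2% of all tested genes), 7 and 20 in NrESC (28.6% and 31.3%), and 6 and 12 for the difference (11.3% and 14.2%). The Cd63 libraries of NrESC stood at 270.5 and 271 TPM at passage 0 and at 178 and 175 at passage 14.

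Passage 8 was compared with the mean of passages 6 and 10 within each arm, since the NrESC libraries of that passage stood apart. Most of the lysosomal genes were higher at passage 8 in both arms. In ESC, 23 of the 31 genes were called higher and 3 lower, where 22.4% of all tested genes were higher and 22.3% lower. In NrESC, 25 were higher and 4 lower, where 36.9% and 32.8% of all tested genes were. The median log2 change of the list was 0.23 in ESC and 0.46 in NrESC, against 0.00 and 0.03 over all tested genes. All 23 genes called higher in ESC were also called higher in NrESC, 2 (Manba and Tfe3) were lower in both, and none was called in opposite directions. Of the 3 lower in ESC, Cln3 and Tfe3 were lost without ESC passage 6 replicate 1, either passage 8 replicate or passage 10 replicate 1, which left Manba. The change was more upward in NrESC for 17 genes and more downward for 4, where 24.4% and 25.2% of all tested genes were called in this difference of differences. The 4 were 2 without ESC or NrESC passage 8 replicate 2.

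By role, 7 of 8 glycosidases, 6 of 6 proteases, both sulfatases, 5 of 6 lipid hydrolases and carriers, 5 of 7 membrane proteins and neither transcription factor were called higher at passage 8 in NrESC. In ESC the numbers were 7, 5, 2, 4, 5 and 0. Of all tested genes 36.9% were called higher at passage 8 in NrESC and 22.4% in ESC. Neu1 was at 7.04 and 7.07 TPM in ESC at passage 6, at 9.46 and 9.66 at passage 8 and at 5.32 and 6.30 at passage 10. In NrESC it was at 8.29 and 8.44, then at 19.7 and 20.1, then at 8.23 and 8.68. The change was 0.53 in ESC (SE 0.06) and 1.24 in NrESC (SE 0.05), and their difference of 0.71 had an adjusted p = 1.26e-10. Both passage 8 libraries lay above all others of the NrESC arm.

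Scarb2 showed the largest difference between the arms in this change. Its NrESC libraries were at 6.18 and 6.99 TPM at passage 6, at 14.4 and 14.6 at passage 8 and at 6.65 and 7.08 at passage 10. In ESC the passage 8 libraries were at 9.41 and 9.57 TPM, within the range of that arm. The change was 1.11 in NrESC (SE 0.05) and 0.23 in ESC (SE 0.06), with a difference of 0.87 in log2 (adjusted p = 6.89e-13). Smpd1 was at 16.5 and 17.3 TPM at passage 8 in NrESC, where the other 14 libraries of the arm lay between 8.55 and 12.3. It changed by 0.68 there (SE 0.06) and by 0.00 in ESC (SE 0.07), a difference of 0.68. Lamp2 changed by 0.78 in NrESC and 0.22 in ESC, and its NrESC libraries of passage 8 at 81.1 and 84.1 TPM were the highest of all 32.

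Hexa, lower under treatment in the mean, was at its highest in both arms at passage 8, at 71.8 and 77.2 TPM in ESC and 69.2 and 70.1 in NrESC. It changed by 0.42 in ESC (SE 0.03) and 0.83 in NrESC (SE 0.04). Ctsb changed by 0.36 and 0.66, Psap by 0.15 and 0.60, Mcoln1 by 0.21 and 0.67, and Ctsd by 0.08 and 0.41, each larger in NrESC in the test of the difference. Npc2 changed by 0.29 and 0.28, with a difference of -0.01 (SE 0.04). Lipa changed by 0.57 (SE 0.11) and 0.64 (SE 0.10), with a difference of 0.07 (SE 0.15), which leaves room for a change in either direction.

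Manba had the largest fall of the list at passage 8, in both arms. In ESC it was at 57.8 and 58.4 TPM at passage 6, at 40.0 and 41.6 at passage 8 and at 70.4 and 71.2 at passage 10. In NrESC it was at 42.3 and 43.1, then at 13.9 and 14.5, then at 40.3 and 42.2. It fell by 0.70 in log2 in ESC (SE 0.03) and by 1.56 in NrESC (SE 0.03), with a difference of -0.86 (adjusted p = 8.51e-20). Npc1 fell by 0.21 in NrESC (SE 0.06) and was not called in ESC at 0.10 (SE 0.06). Tfeb and Tfe3 fell by 0.15 and 0.14 in NrESC, while in ESC Tfe3 fell by 0.10 and Tfeb was at 0.00 (SE 0.04). Neither transcription factor was called higher at passage 8 in either arm.

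**Figure D4:**
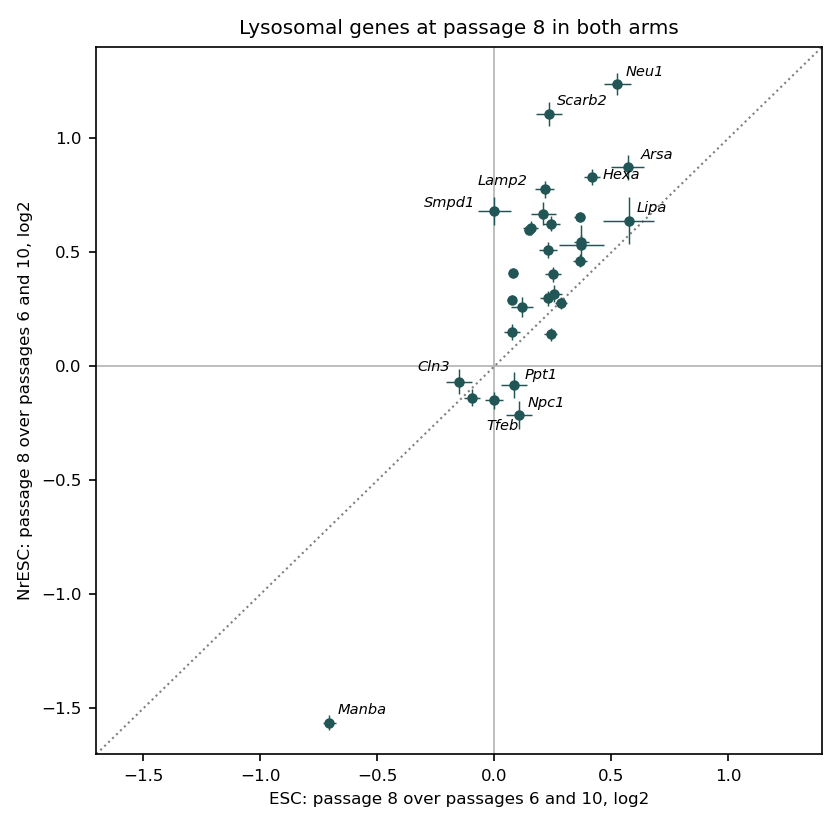
Log2 change from the mean of passages 6 and 10 to passage 8 in ESC (horizontal axis) and NrESC (vertical axis) for each of the 31 genes, with bars of 1 SE and a dotted line of equal change. Most genes lie in the upper right above the line, Neu1 is at 0.53 and 1.24, and Manba lies alone at the lower left, at -0.70 and -1.56.

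Set against passages 4 and 12 in place of 6 and 10, a choice made after the data were seen, 19 genes were higher and 1 lower at passage 8 in ESC, where 8.67% and 8.05% of all tested genes were. In NrESC 25 were higher and 3 lower, where 32.5% and 30.6% were. Lamp2, Glb1, Neu1, Arsa and Gla were no longer called higher in ESC, and Gla changed sign, at -0.01. Passages 6 and 10 were themselves low for these genes: the summed level of the 31 genes was 2103 TPM ± 16.2 (SD, n = 2) at passage 6 and 2111 ± 6.39 at passage 10 in ESC, and 2017 ± 26.0 and 2054 ± 17.6 in NrESC. At passage 8 the sums were 2430 ± 9.71 and 2668 ± 3.37. Passages 4, 8 and 12 together against 6 and 10 gave 20 genes higher and 4 lower in ESC, where 25.1% and 25.9% of all tested genes were, and 24 and 2 in NrESC, where 29.9% and 27.5% were. In ESC, 14 of the 31 genes had their highest group mean at passage 0 and 11 at passage 8, against 24% and 11.3% of all tested genes. In NrESC 7 did so at passage 0 and 20 at passage 8, against 20% and 32.5%.

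Other lists moved at passage 8 as well, and their part in the change of the lysosomal genes was not tested. The 8 embryonic stem cell markers summed to 4277 and 4282 TPM in the NrESC libraries of passage 8, against 4701 to 5774 in the other 14 NrESC libraries, and 7 of the 8 were called lower there. The 10 fibroblast markers summed to 23.4 and 23.9 TPM against 10.75 to 18.8, with Lum at 0 in all 32 libraries. Only 4 of the 10 passed 1 TPM in any library, with Pdgfrb up to 10.8 and Thy1 up to 9.48 in NrESC. The 11 endoderm markers summed to 12.7 and 13.5 TPM against 6.37 to 9.94. Of these 11, 4 passed 1 TPM in any library, with Gata4 up to 7.48 in NrESC. The 10 macrophage markers, from a cell type rich in lysosomes, summed to 0.91 and 1.13 TPM against 0.49 to 0.86, and Tyrobp was at 0 in every NrESC library. In ESC at passage 8 the stem cell markers summed to 5713 and 5715 TPM, within the 4990 to 6033 of that arm's other libraries, and the fibroblast markers to 16.6 and 17.2 within 10.2 to 19.2. The endoderm markers in ESC summed to 9.35 and 9.77 TPM, where the range elsewhere in the arm was 5.93 to 9.38. The highest macrophage sum, 5.53 TPM with Lyz2 at 3.60, was in an ESC library of passage 2. The 4 LXR targets Abca1, Abcg1, Mylip and Srebf1 summed to 297 and 305 TPM in the NrESC libraries of passage 8. In the other 14 NrESC libraries they summed to 204 to 252 TPM, and 3 of the 4 were called higher and 1 lower at passage 8. In ESC they summed to 50.9 and 52.7 TPM at passage 8, within the 45.65 to 56.7 elsewhere in that arm.

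Genes with CACGTG in their start-site window and genes without it were counted separately at passage 8. In ESC 10 of 11 with it were called higher and 1 lower, and 11 of 17 without it were higher and 2 lower, with median changes of 0.21 and 0.23 in log2. In NrESC 10 of 11 were higher and none lower, and 13 of 17 were higher and 3 lower, with medians of 0.41 and 0.51. Of all tested genes 22.4% were called higher and 22.3% lower at passage 8 in ESC, and 36.9% and 32.8% in NrESC. In the mean of the arms 5 rose and 2 fell with CACGTG, among them Arsa and Ctsa whose stretches are shown above. Without CACGTG 5 rose and 3 fell, where 28.3% and 27.2% of all tested genes did. These are descriptions of small groups, and no difference between them was tested.

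Further genes of the lysosome and its supply were counted in the same comparisons. In the mean of the arms 28.3% of all tested genes were called higher and 27.2% lower. Of 34 other lysosomal hydrolases tested, 16 rose and 5 fell in the mean of the arms, with a median of 0.16 in log2. Those with the smallest p were Ctsf, a cysteine protease, Arsb, a sulfatase of dermatan sulfate, and Naglu, of heparan sulfate breakdown. Ctsf was lower by 0.58 in log2 (11.9 TPM ± 2.06 in ESC, 7.88 ± 1.34 in NrESC, SD of the 8 passage means). Arsb fell by 1.43 in log2, from 2.82 TPM ± 0.290 to 1.08 ± 0.405, while Naglu rose by 0.71, from 4.03 ± 0.691 to 6.65 ± 1.82. Sulfatases moved in both directions, with Arsa and Sgsh higher and Arsb lower. Of 27 other lysosomal membrane proteins, 10 rose and 8 fell (median -0.03), led by Mfsd1 at -0.51, Slc29a3 at 0.39 and Laptm4b at 0.27.

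The proton pump that acidifies the lysosome, the V-ATPase, had 6 of 19 subunit genes higher and 8 lower (median -0.04), where 28.3% and 27.2% of all tested genes were called. Its leading genes were the subunit a isoforms Atp6v0a1 at 0.34 and Tcirg1 at 0.42, and Atp6v1d at -0.19. Of 20 genes of sorting and fusion, 4 rose and 6 fell. Among them Nagpa, the uncovering enzyme of the mannose 6-phosphate tag, fell by 0.48, the HOPS subunit gene Vps41 by 0.25 and Sumf1, which activates sulfatases, by 0.28 in log2. Of 26 autophagy genes 8 rose and 11 fell (median -0.04). The LC3 family held members moving apart, with Gabarapl1 up by 0.83, from 20.2 TPM ± 3.02 to 35.6 ± 7.41, and Gabarapl2 down by 0.43 in log2, from 918 ± 81.3 to 672 ± 74.4. Wipi1 rose by 0.76. Of 19 genes of nutrient sensing at the lysosome 3 rose and 7 fell, led by Flcn at -0.42, Mitf at -0.42 and Lamtor2 at 0.31. Flcn encodes folliculin, which acts on the nuclear entry of TFE3 in embryonic stem cells. Flcn stood at 21.4 TPM ± 1.57 in ESC and 15.7 ± 1.01 in NrESC (SD of the 8 passage means). Mitf belongs to the same family as Tfeb and Tfe3.

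The same lists were counted at passage 8. In NrESC, where 36.9% of all tested genes were called higher and 32.8% lower, 26 of the 34 other hydrolases were called higher and 5 lower (median 0.44), 17 and 3 of the 27 membrane proteins (0.22) and 14 and 2 of the 19 V-ATPase subunits (0.27). In ESC, where 22.4% and 22.3% of all tested genes were called, these gave 20 and 1 (0.25), 9 and 1 (0.06), and 12 and 1 (0.10). Sorting and fusion genes gave 8 higher and 8 lower in NrESC (-0.02), autophagy genes 10 and 9 (0.03) and nutrient-sensing genes 7 and 7 (0.02). In ESC these gave 7 and 2 (0.02), 8 and 7 (0.01), and 6 and 4 (0.00). No difference between lists was tested. Among named genes Naglu changed by 1.10 in NrESC and 0.53 in ESC, Atp6v0a1 by 0.72 and 0.35, and Wipi1 by 0.95 and 0.71.

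**Figure D5:**
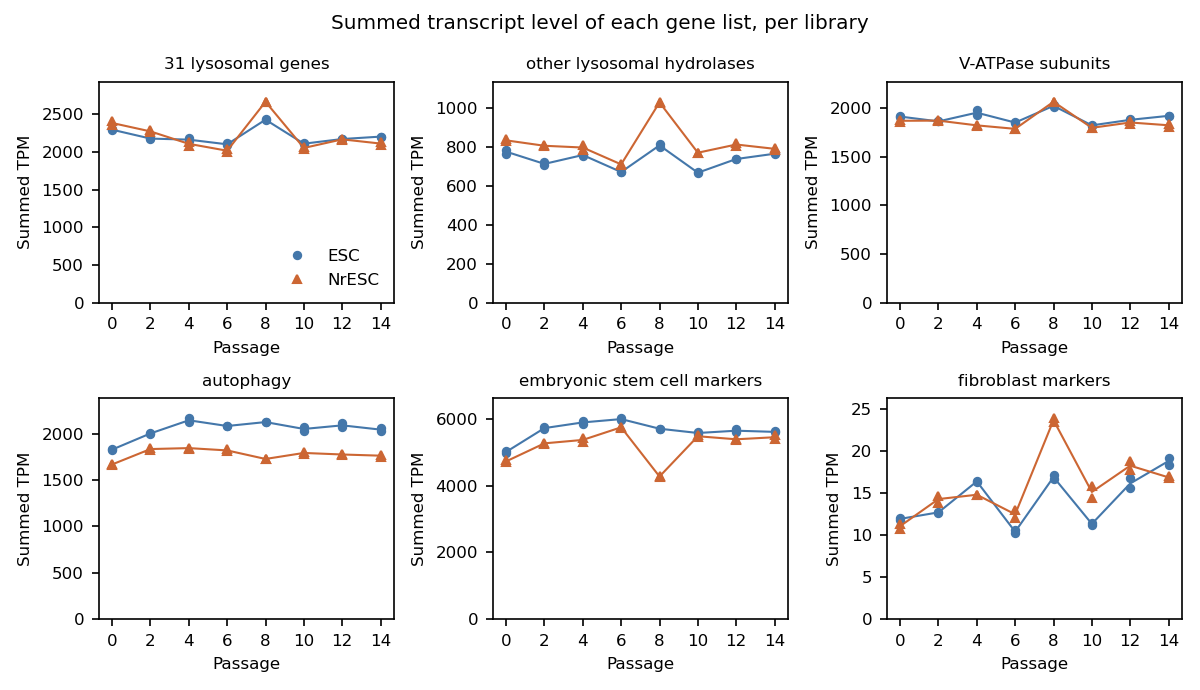
Summed TPM of the 31 lysosomal genes and 5 other lists in each library by passage, with circles for ESC, triangles for NrESC, lines through the group means and axes from 0. The sums of lysosomal genes, other hydrolases and V-ATPase subunits peak at passage 8, where the NrESC sum of the 31 genes is 2668 TPM, the stem cell markers dip in NrESC and the fibroblast markers are at 23.4 and 23.9 TPM.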

How the data were processed

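The first deposited table holds expected counts for each gene symbol, made with RSEM per the file headers. A second deposited table holds TPM, which the authors scaled for transcript length and library. Per the submitters' processing notes, RSEM, HTSeq 0.12.4, STAR, edgeR, DESeq2 and Cufflinks 2.2.1 were used with mm9, with no role or order given; annotation and strand setting are not given in the sources used here. RSEM divides reads shared by genes, so overlapping genes are marked uncertain. Expected counts (0.837% not whole) were rounded. Genes passing edgeR's filterByExpr (15036) were fitted with edgeR 4.0.16 in R 4.3.3 (quasi-likelihood, TMM factors 0.979 to 1.03, Benjamini-Hochberg over all genes, threshold 0.05). The mean of passages used 16 sums, 1 per arm and passage, with passage as a block (7 residual degrees of freedom), and slopes the same sums (12). Comparisons at single passages used the 32 libraries (16). Tests were checked on simulated counts.

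All 31 genes are described. Of every other list the 3 genes with the smallest p are named. The genes and lists were chosen with earlier results of these data known. Alternatives were DESeq2 1.42.0, its size factors, no filter, limma 3.58.1 on log2(TPM + 0.5) and log2(TPM + 0.1), single libraries, a replicate block, and leaving out each library or passage. Exon overlaps were taken from a GENCODE annotation of a later build, by symbol.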

Additional observations from a re-analysis of the deposited data

Results flagged for a closer look

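Differences between arms or passages that passed a test of the difference itself were these. The arm difference varied among passages for 28 of the 31 lysosomal genes, where 69.4% of all tested genes did so. Without passage 8 it varied for 23 of the 31, with no share over all tested genes taken. The change at passage 8 against passages 6 and 10 was more upward in NrESC than in ESC for 17 genes and more downward for 4. Of all tested genes 24.4% and 25.2% were. The 5 genes with a difference of more than 0.5 in log2 between the arms were Scarb2 at 0.87, Neu1 at 0.71, Smpd1 at 0.68, Lamp2 at 0.56 and Manba at -0.86 (edgeR quasi-likelihood, adjusted over all genes). In each of the 5 both NrESC libraries of passage 8 lay outside the range of the other 14 NrESC libraries. Groups of 2 libraries were too small for a check of single outlying libraries.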

How the results depend on the processing

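The labels do not pair libraries by replicate number, and deviations of same-numbered libraries correlated between -0.0931 and 0.0975, so the numbers were not taken as pairs. With the replicate block on 32 single libraries, 16 lysosomal genes rose and 11 fell in the mean of passages (12 and 6 with passages as the unit), and slopes were called rising and falling for 6 and 15 genes in ESC, 7 and 20 in NrESC and 6 and 12 for the difference. Single libraries without the block gave 11 falling in the mean, and slopes of 6 and 16, 7 and 20, and 6 and 12. These fits take the spread between 2 libraries of a group (median SD 0.0284 in log2) in place of that over passages (0.144 in ESC, 0.198 in NrESC). Without passage 8, slopes were called rising for 2 genes in ESC and falling for 3 in NrESC, and DESeq2 called 2 falling in NrESC. No share over all tested genes was taken in these settings. At passage 8 in ESC, DESeq2 called 1 gene lower, and against passages 4 and 12 there was 1 lower in ESC, 2 with a more downward change in NrESC than in ESC, and Gla in ESC at -0.0057. Leaving out 1 library gave 5 to 15 higher and 1 to 4 lower at passage 0, 1 to 3 lower at passage 8 in ESC and 2 to 5 with a more downward change in NrESC. The autophagy genes called higher numbered 5 without passage 12 and 8 with it, and on single libraries 8 other hydrolases and 11 nutrient-sensing genes fell and 7 sorting genes rose, against 5, 7 and 4. Other counts of the 31 genes stayed within 1.5 times under each alternative. At that limit, 8 genes rose in the mean of passages in both limma fits and without passage 2, against 12. Ctsd was called higher in 16 of 47 settings, Tfe3 in 34, Asah1 in 38 and Gaa in 40; the cause was not tested.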
